A study of Mus musculus with 47 samples.

Results

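The genes described here are the 10 of the MHC class I antigen presentation pathway that were chosen by name: the heavy chains H2-D1, H2-K1 and H2-T23, the light chain B2m, the peptide transporter subunits Tap1 and Tap2, the loading protein Tapbp, the immunoproteasome subunits Psmb8 and Psmb9, and the regulator Nlrc5. They are 10 of the 35486 genes counted in the hippocampus of 47 male mice. The choice used no threshold on a measured value, but was made with earlier results of these data known. The 4 groups were Young Veh (n = 13 mice), Young PF4 (n = 12), Old Veh (n = 12) and Old PF4 (n = 10). Young mice were 3.75 to 5.26 months old and old mice were 17.4 to 20.23 months old. The mice were C57BL/6J, and those labelled PF4 received mouse platelet factor 4 (a chemokine stored in platelets) by daily intraperitoneal injection, whereas those labelled Veh received vehicle. Each library came from 1 mouse.

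MHC class I molecules display peptides made inside a cell to CD8 T cells. Proteins are cut by the proteasome, the transporter TAP carries the peptides into the endoplasmic reticulum, and tapasin with its partners loads them onto a heavy chain paired with beta-2 microglobulin, which then moves to the cell surface. In the brain the pathway is low at rest and is expressed mainly by endothelial cells and microglia, interferons raise it, and class I molecules are also found on some neurons, where they have been studied in synapse remodelling.

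Of these genes, 8 lie within the MHC region of mouse chromosome 17 (GRCm38), from Tapbp at chr17:33915899-33929292 through H2-K1 at chr17:33996017-34000347 and the Psmb9, Tap1, Psmb8 and Tap2 cluster to H2-D1 at chr17:35262730-35267499 and H2-T23 at chr17:36029773-36032855. B2m lies at chr2:122147686-122153083 and Nlrc5 at chr8:94434356-94527272. All 10 are protein coding. The promoters of the 3 genes whose counts differed with age in the tests below, and of H2-K1, another classical heavy chain, are shown to compare which of 4 motifs each holds. Among these, interferon-stimulated response elements and kappaB sites are known as elements through which inflammatory signals reach class I genes. The promoters run from 250 bases before the RefSeq start site to 50 bases after it, on build GRCm38.p6, in the direction of transcription. Capitals mark GAAANNGAA (the core of the interferon-stimulated response element), CCAAT, GGGNNTTCC (a kappaB-type site) and TGACGC (part of the X box). CCAAT has the letters of the Y box but is marked at any position, so a match need not be a Y box. Each motif was searched as an exact match on both strands. In H2-D1, H2-K1 and B2m no marked elements overlapped.

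H2-D1, chr17:35262844-35263143, plus strand: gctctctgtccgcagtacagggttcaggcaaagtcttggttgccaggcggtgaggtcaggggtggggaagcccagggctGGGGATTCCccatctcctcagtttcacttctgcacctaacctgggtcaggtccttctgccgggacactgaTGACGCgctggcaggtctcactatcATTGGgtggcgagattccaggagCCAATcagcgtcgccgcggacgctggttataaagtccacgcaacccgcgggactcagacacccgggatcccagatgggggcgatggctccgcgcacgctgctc
H2-K1, chr17:34000284-34000583, minus strand: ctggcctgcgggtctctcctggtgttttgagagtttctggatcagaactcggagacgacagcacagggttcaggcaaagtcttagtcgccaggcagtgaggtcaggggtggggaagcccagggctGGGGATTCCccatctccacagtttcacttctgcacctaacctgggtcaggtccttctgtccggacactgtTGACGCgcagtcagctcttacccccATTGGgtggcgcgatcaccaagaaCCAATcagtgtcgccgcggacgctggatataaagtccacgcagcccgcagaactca
B2m, chr2:122147437-122147736, plus strand: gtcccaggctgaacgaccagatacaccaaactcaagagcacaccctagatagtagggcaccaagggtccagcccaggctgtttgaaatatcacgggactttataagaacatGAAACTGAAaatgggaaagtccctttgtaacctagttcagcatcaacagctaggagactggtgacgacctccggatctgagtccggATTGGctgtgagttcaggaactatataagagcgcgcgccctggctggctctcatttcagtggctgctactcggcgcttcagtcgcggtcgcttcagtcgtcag
Psmb8, chr17:34197945-34198244, plus strand: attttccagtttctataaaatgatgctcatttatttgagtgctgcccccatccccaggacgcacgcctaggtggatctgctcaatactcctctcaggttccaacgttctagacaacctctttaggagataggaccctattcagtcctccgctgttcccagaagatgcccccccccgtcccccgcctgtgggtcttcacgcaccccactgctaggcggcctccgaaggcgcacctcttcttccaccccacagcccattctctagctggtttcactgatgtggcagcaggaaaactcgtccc

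H2-D1 and H2-K1 shared their longest identical run of 47 bases. Both held GGGGATTCC, TGACGC and a pair of CCAAT matches in opposite directions, in the same order. In H2-D1 these lay 171, 101, 76 and 53 bases before the start site. B2m held the GAAANNGAA match GAAACTGAA 139 bases before its start and a reversed CCAAT 53 bases before it. Psmb8 held no exact match to the 4 motifs in this window. RefSeq gives H2-K1 a second start site close by. Of the 8 members with a promoter sequence, which leaves out Tap2 and Nlrc5, 2 held GAAANNGAA against 8.56% of 32851 mouse promoters of the same length. CCAAT was in 7 of the 8 members and 37.4% of all promoters, GGGNNTTCC in 2 and 5.82%, and TGACGC in 2 and 7.4%. The windows of Tap1 and Psmb9 overlap on opposite strands, and their CCAAT matches are the same bases, counted for both. These matches describe letters and not bound sites. Only exact matches were searched, so a promoter without a match, such as H2-D1 or H2-K1 for GAAANNGAA, may still hold a variant of the element.

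Transcript levels spanned a wide range along the pathway. On a scale of counts per 1000000 (CPM) per kilobase of exon (the union of a gene's annotated exons, mean over 47 libraries), B2m was highest at 86.4 ± 12.9 (SD), followed by H2-D1 at 24.1 ± 4.44, H2-K1 at 10.9 ± 2.55 and Tapbp at 9.59 ± 1.29. The range over libraries of Tapbp (7.31 to 13.3) lay within that of H2-K1 (7.28 to 22.1). The other members were far lower, with Tap2 at 3.01 ± 0.477, H2-T23 at 1.84 ± 0.388, Psmb8 at 1.5 ± 0.375, Tap1 at 0.935 ± 0.261 and Psmb9 at 0.489 ± 0.183. H2-T23, Psmb8 and Tap1 overlapped their neighbours in this order within their spread. Divided by the longest transcript, a length chosen after seeing the data, Psmb8 was at 2.66 ± 0.666 and above H2-T23 at 2.01 ± 0.424, H2-K1 was at 17.2 ± 4, and the order of the others was kept. Nlrc5, the transactivator of class I genes, was the lowest at 0.0738 ± 0.0483 and had 0 to 21 reads per library, so that it did not pass the count filter. It is described by its values and, in the PF4 comparisons, by a fit with no count filter, and the tests below cover the other 9 members.

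The immunoproteasome subunits were scarce beside the constitutive subunits that they replace in assembled particles. Per length, Psmb8 stood at 2.85% ± 0.528 (SD, n = 13) of Psmb5 in Young Veh and 3.65% ± 0.805 (n = 12) in Old Veh, and at 2.48% ± 0.674 (n = 12) in Young PF4 and 3.3% ± 0.915 (n = 10) in Old PF4. Psmb9 stood at 0.742% to 1.07% of Psmb6 in the 4 group means. Psmb10, the third inducible subunit, was by contrast at 70.4% to 76.5% of Psmb7. These shares depend on the length used. With the longest transcript the group means were 4.4% to 6.46% for Psmb8, 0.486% to 0.7% for Psmb9 and 76.3% to 82.8% for Psmb10. 

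H2-D1 and H2-K1 carried most of the reads assigned to classical and non-classical class I heavy chains. H2-D1 held 49.6% ± 2.1 (SD, n = 13) of these reads in Young Veh and 52.3% ± 1.93 (n = 12) in Old Veh, and H2-K1 held 26% ± 2.46 and 26.9% ± 2.49. H2-T23, a non-classical chain that presents leader peptides of other class I molecules to NK cell receptors, held 4.06% to 4.74% in the 4 group means. Heavy chain genes resemble each other, and 14.3% of the 50-base windows of the longest H2-D1 transcript, 8.11% of those of H2-K1 and 15% of those of H2-T23 also occur in another gene, whereas none of the B2m windows do. The counts of the heavy chains are to that extent uncertain. The libraries carry no strand information, and Tap1 and Psmb9 share 212 exon bases on opposite strands, while Tap2, Psmb8 and Tapbp overlap antisense transcripts. For Psmb8 the exon bases shared with the antisense transcript Gm20496 number 498. Tapbp also shares 149 exon bases with the protein-coding gene Zbtb22 on the same strand.

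Total counts per library ran from 2242879 to 21112908 (median 10374007). Of the 8 libraries with under 5000000 counts, 4 were Old Veh, 2 Young PF4, 1 Young Veh and 1 Old PF4, so depth was not balanced over the groups. The library numbers in the labels do not overlap between old and young mice, so any difference in handling and the age difference cannot be told apart. In old mice they do not overlap between Veh and PF4 either, so the same holds for the PF4 comparison in old mice, whereas in young mice the numbers of both treatments are interleaved. Markers of hippocampal neurons were present in every library, with a summed level of 1320 to 1830 CPM. Choroid plexus markers ranged from 12 to 4260 CPM, with group medians of 1940 (Young Veh), 2380 (Young PF4), 47.1 (Old Veh) and 65.9 (Old PF4).

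**Figure D1:**
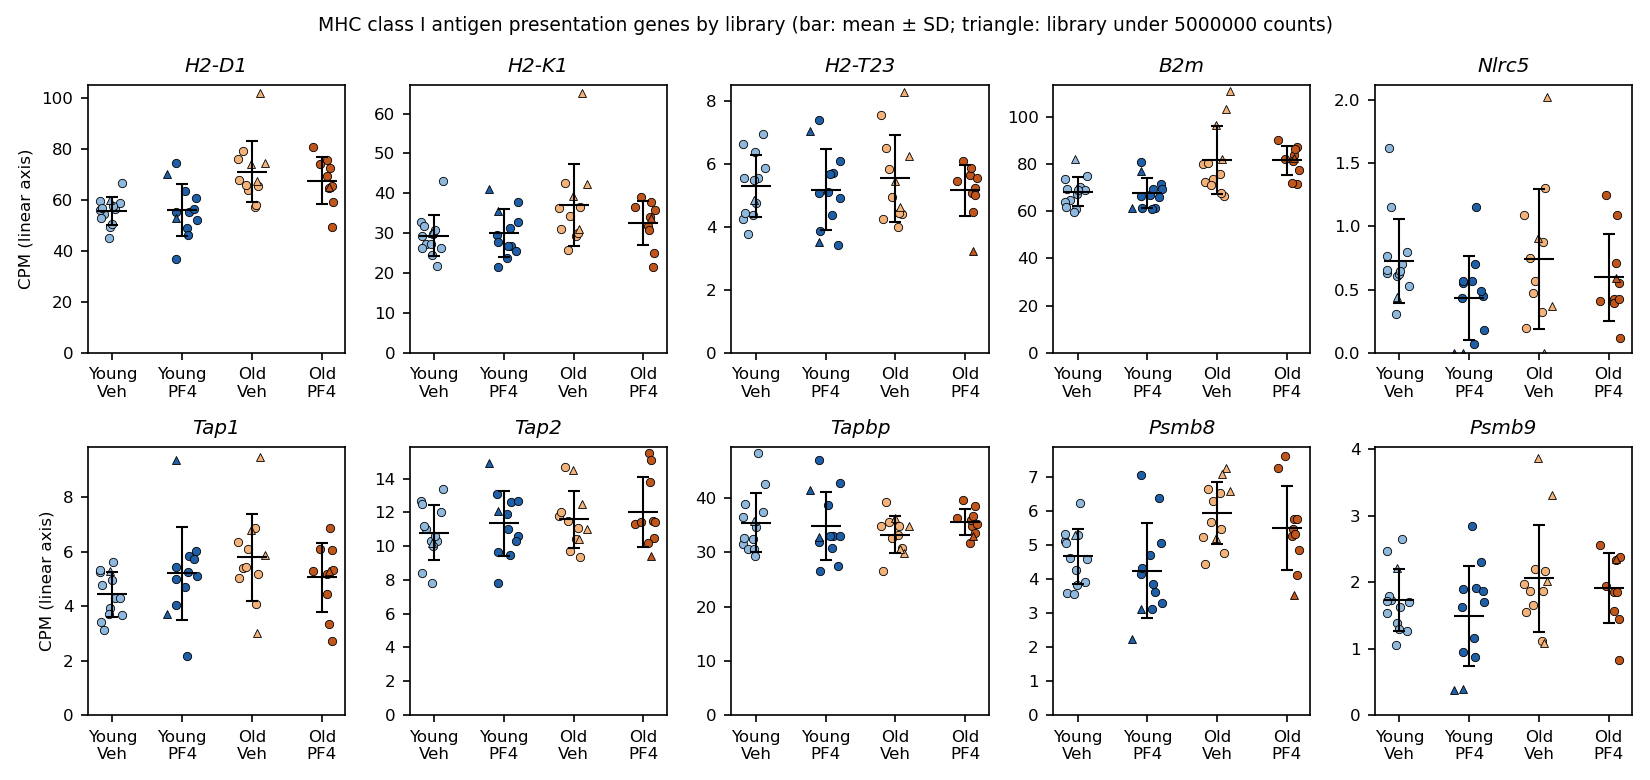
Levels of the 10 genes in CPM (linear axis from 0) in each of the 47 libraries by group, with the group mean and SD; triangles are libraries under 5000000 counts. H2-D1 is higher in Old Veh (mean 71 CPM) than in Young Veh (55.7 CPM), B2m in both old groups (81.6 and 81.5 CPM) than in both young groups (68.2 and 67.8 CPM), and Nlrc5 stays at or below 2.02 CPM.

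The first comparison asked how the pathway differs with age in vehicle-treated mice. H2-D1 and B2m rose in Old Veh, the heavy chain by 1.27-fold and the light chain by 1.19-fold, and no other member passed the test. Of the 9 members tested, 2 were called (adjusted p below 0.05, edgeR's quasi-likelihood test over all genes), both of them higher, where 2.77% of 17778 genes were called and 2.16% were called higher. The median log2 fold change of the 9 members was 0.25, against -0.01 over all genes tested, and 8 of the 9 were above 0, against 45.3% of all genes.

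H2-D1 was at 45.2, 56.6 and 66.8 CPM (lowest, median, highest) in Young Veh and at 57.1, 67.6 and 102 CPM in Old Veh. All 12 Old Veh libraries lay above the Young Veh median, and 7 of them lay above every Young Veh library. The log2 fold change was 0.35 (SE 0.082, 95% confidence interval 0.18 to 0.51, edgeR adjusted p = 0.00936). B2m was at 59.6, 68.7 and 82.2 CPM in Young Veh and at 66.5, 77.8 and 111 CPM in Old Veh. Its groups overlapped more, with 3 of 12 Old Veh libraries above every Young Veh library and 10 above the Young Veh median. The log2 fold change was 0.25 (SE 0.063, 95% confidence interval 0.12 to 0.38, edgeR adjusted p = 0.0167). In bulk tissue, more RNA per cell and more cells of a type that expresses the gene cannot be told apart.

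H2-K1, Tap1 and Psmb8 were not called, although their unadjusted p was below 0.05, as it was for 5 of the 9 members and 15.2% of all genes. H2-K1 was at 21.7, 29.3 and 43 CPM in Young Veh and at 25.8, 35.4 and 65.1 CPM in Old Veh, a log2 fold change of 0.33 (SE 0.11, edgeR adjusted p = 0.0958). The value fell to 0.23 without Old Veh replicate 3, the library at 65.1 CPM, and was 0.39 and called without Young Veh replicate 3 (edgeR adjusted p = 0.0385). Tap1, which forms the transporter with Tap2, was at 3.13, 4.31 and 5.62 CPM in Young Veh and at 3, 5.67 and 9.5 CPM in Old Veh, a log2 fold change of 0.38 (SE 0.14, edgeR adjusted p = 0.156). Of the 12 Old Veh libraries, 6 lay above every Young Veh library for Tap1 and 1 lay below all of them. Psmb8, the subunit that gives the immunoproteasome its altered chymotrypsin-like activity, was at 3.56, 4.62 and 6.25 CPM in Young Veh and at 4.46, 5.99 and 7.27 CPM in Old Veh, a log2 fold change of 0.34 (SE 0.12, edgeR adjusted p = 0.127).

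The remaining members gave smaller values. Psmb9 stood at 0.22 (SE 0.19), Tap2 at 0.1 (SE 0.091), H2-T23 at 0.04 (SE 0.12) and Tapbp at -0.09 (SE 0.076) on the log2 scale, with edgeR adjusted p from 0.626 to 0.922. Tapbp, which encodes tapasin, was the only member below 0, with a 95% confidence interval of -0.24 to 0.07. Nlrc5 was at 0.303, 0.648 and 1.62 CPM in Young Veh and at 0, 0.66 and 2.02 CPM in Old Veh.

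The calls of H2-D1 and B2m in vehicle-treated mice were lost without the shallow libraries, and with the microglial or the astrocyte marker score as a covariate. Without the 8 libraries under 5000000 counts, the log2 fold change was 0.28 for H2-D1 (edgeR adjusted p = 0.119) and 0.13 for B2m (edgeR adjusted p = 0.243), and no member was called, with 176 genes called in all against 492. B2m was at 82.2 to 111 CPM in the 4 shallow Old Veh libraries and at 66.5 to 80.2 CPM in the other 8, while the single shallow Young Veh library, at 82.2 CPM, was the highest of its group. The 2 shallow Young PF4 libraries, at 61.3 and 77.1 CPM, and the shallow Old PF4 library, at 82.4 CPM, lay within the ranges of the deeper libraries of their groups (61 to 80.9 CPM and 71.6 to 90.2 CPM). For H2-D1 the shallow Old Veh libraries were at 67.4 to 102 CPM and the other 8 at 57.1 to 79.3 CPM. With the microglial marker score described below as a covariate, neither was called (H2-D1 0.28, edgeR adjusted p = 0.161, and B2m 0.21, edgeR adjusted p = 0.181). With the astrocyte score neither was called (H2-D1 0.27, edgeR adjusted p = 0.0527, and B2m 0.22, edgeR adjusted p = 0.0574). Within groups, B2m and total counts were correlated negatively over the 47 libraries (Pearson r = -0.48, permutation p = 0.00132, adjusted p = 0.0119 over 36 relations). Spearman's rho was -0.362 (permutation p = 0.0184, adjusted p = 0.0947) and r was -0.385 without the 2 libraries farthest from the median depth. For H2-D1, r was -0.176 (rho = -0.138, permutation p = 0.266 and 0.38, adjusted p = 0.478 and 0.547).

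**Figure D2:**
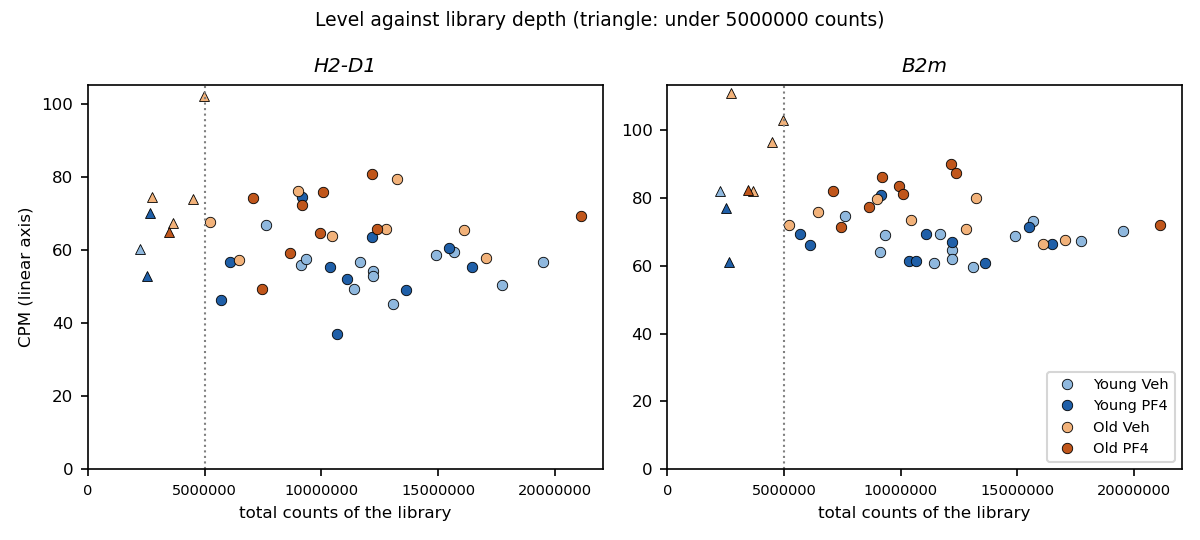
H2-D1 and B2m in CPM (linear axis from 0) against the total counts of each library, coloured by group; triangles lie under 5000000 counts (dotted line). For B2m, the 4 shallow Old Veh libraries are at 82.2 to 111 CPM and the other 8 at 66.5 to 80.2 CPM, and the 9 deeper Old PF4 libraries are at 71.6 to 90.2 CPM against 61 to 80.9 CPM in the 10 deeper Young PF4 libraries.

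The age comparison in PF4-treated mice uses libraries that the vehicle comparison does not, and gives the same measure in other mice. No member was called, where 0.332% of the 17778 genes were called and 0.304% were called higher, and 3 of the 9 members had an unadjusted p below 0.05 against 8.27% of all genes. The median log2 fold change of the members was 0.14, against 0 over all genes, and 8 of 9 were above 0, as were 51.7% of all genes. With DESeq2, 1 member, B2m, was called.

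B2m was at 61, 66.7 and 80.9 CPM in Young PF4 and at 71.6, 82.3 and 90.2 CPM in Old PF4. Every Old PF4 library exceeded the Young PF4 median, 7 of 10 exceeded every Young PF4 library, and 10 of the 12 Young PF4 libraries lay below every Old PF4 library. The log2 fold change was 0.27 (SE 0.067, 95% confidence interval 0.13 to 0.4, edgeR adjusted p = 0.0596, DESeq2 adjusted p = 0.0242). Without the shallow libraries the value was again 0.27 (edgeR adjusted p = 0.0123). B2m was also called, at 0.28 or 0.29, in the fits without Young PF4 replicate 4 or 10 (edgeR adjusted p = 0.0294 and 0.0471) and without Old PF4 replicate 5 or 6 (edgeR adjusted p = 0.0428 and 0.0338).

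H2-D1 was at 36.9, 55.4 and 74.5 CPM in Young PF4 and at 49.2, 67.4 and 80.7 CPM in Old PF4, a log2 fold change of 0.28 (SE 0.087, edgeR adjusted p = 0.208). Of the 10 Old PF4 libraries, 9 exceeded the Young PF4 median and 2 exceeded every Young PF4 library. Psmb8 was at 2.23, 4.01 and 7.08 CPM in Young PF4 and at 3.53, 5.41 and 7.63 CPM in Old PF4, a log2 fold change of 0.36 (SE 0.13, edgeR adjusted p = 0.349). H2-K1 stood at 0.14 (SE 0.12) and Tap1 at -0.01 (SE 0.16). Whether these age differences depend on treatment is tested by the difference of the PF4 effects below.

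Over both treatments in the same fit, the age difference had the smallest errors. H2-D1, B2m and Psmb8 rose with age and no member fell. The 3 called among 9 compare with 4.71% of all genes called and 3.31% called higher. The log2 fold change was 0.31 for H2-D1 (SE 0.06, 95% confidence interval 0.19 to 0.43, edgeR adjusted p = 0.000546), 0.26 for B2m (SE 0.046, interval 0.17 to 0.35, edgeR adjusted p = 0.000172) and 0.35 for Psmb8 (SE 0.089, interval 0.17 to 0.53, edgeR adjusted p = 0.0125). These correspond to 1.24-fold, 1.2-fold and 1.27-fold. H2-K1 stood at 0.23 (SE 0.081, edgeR adjusted p = 0.0828), and was called at 0.26 without Young Veh replicate 3 (edgeR adjusted p = 0.0419) and without Old PF4 replicate 8 (edgeR adjusted p = 0.035).

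Of the 2 classical heavy chains, only H2-D1 was called, but the interval of H2-K1 (0.07 to 0.4) covers the value of H2-D1, and their difference was not tested. Psmb9, the partner of Psmb8 in the immunoproteasome, stood at 0.22 (SE 0.14, interval -0.06 to 0.5) from only 1 to 49 reads per library. Tap1 stood at 0.18 (SE 0.11), Tap2 at 0.1 (SE 0.066), H2-T23 at 0.02 (SE 0.086) and Tapbp at -0.03 (SE 0.056), with edgeR adjusted p from 0.352 to 0.938. The interval of H2-T23, -0.15 to 0.19, ends where that of H2-D1 begins, and their difference was not tested.

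Without the libraries under 5000000 counts, H2-D1 and B2m were called over both treatments (log2 fold changes of 0.29 and 0.2, edgeR adjusted p = 0.00521 and 0.000875), and Psmb8 was not (0.32, edgeR adjusted p = 0.0557). Leaving out any single library kept all 3 calls in each of 47 fits.

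**Figure D3:**
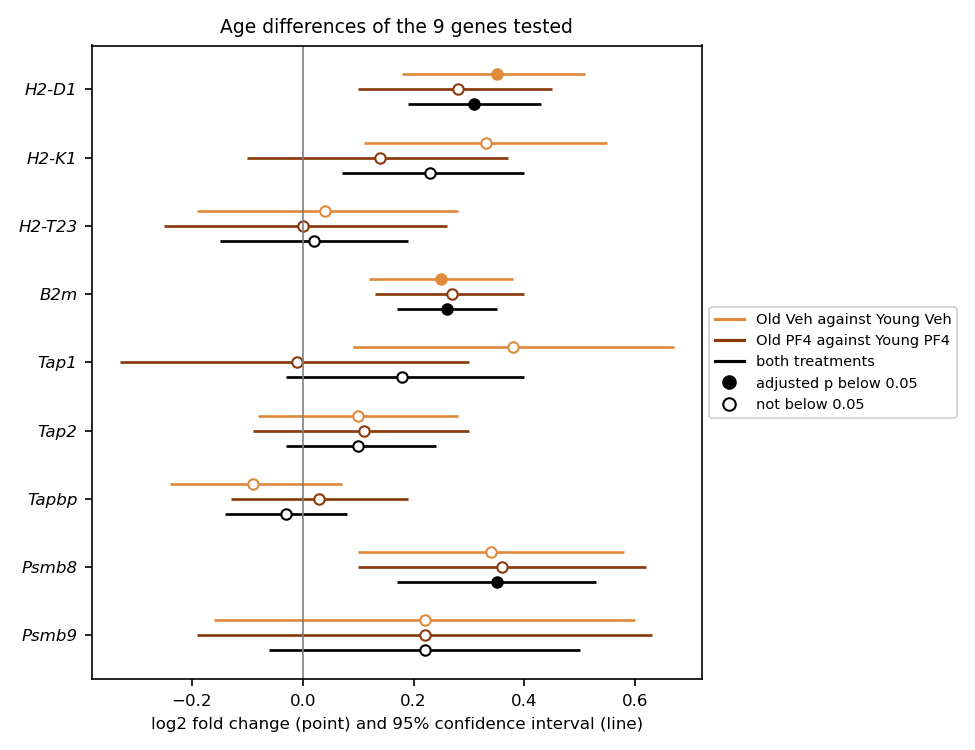
Log2 fold changes of old against young mice (points) with 95% confidence intervals (lines) for the 9 genes tested, in vehicle-treated mice, in PF4-treated mice and over both; filled points have an edgeR adjusted p below 0.05. H2-D1 and B2m are filled in vehicle-treated mice and over both treatments, and Psmb8 over both (0.35); the values of H2-T23 and Tapbp lie between -0.09 and 0.04.

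Markers of microglia and astrocytes also differed with age. Each of 8 microglial genes was above 0 in all 3 age comparisons, and 5 of 8 rose over both treatments (among them Cx3cr1 and C1qa), with a median log2 fold change of 0.25 over the list, where 3.31% of all genes were called higher and 4.71% were called. Their summed level was 356 to 432 CPM in Young Veh and 380 to 514 CPM in Old Veh, and 361 to 443 CPM in Young PF4 and 408 to 555 CPM in Old PF4. Of 4 astrocyte markers, Gfap (0.38) and Slc1a2 (0.16) rose over both treatments, and Aldh1l1 fell in vehicle-treated mice (-0.19). Their summed level was 2150 to 2440 CPM in Young Veh and 2380 to 2820 CPM in Old Veh, and 2140 to 2450 CPM in Young PF4 and 2380 to 3130 CPM in Old PF4. Of 4 oligodendrocyte markers, Mbp rose over both treatments (0.21), and none of 3 perivascular macrophage, 2 red blood cell and 10 choroid plexus genes tested was called (medians -0.47, 0.25 and -0.98). None of the 7 endothelial markers was called, with a median of -0.06 and summed levels of 167 to 269 CPM over all libraries. T cell markers were at or near 0, with at most 1.16 CPM summed over 6 genes in any library, Cd3d at 0 in every Young Veh and Old PF4 library and Cd2 at 0 in every Young PF4 and Old Veh library.

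With the microglial marker score (the mean log2 CPM of the 8 genes) as a covariate, the age values over both treatments were 0.24 for H2-D1, 0.21 for B2m and 0.32 for Psmb8, and none of the 3 was called (edgeR adjusted p = 0.25, 0.151 and 0.316). With the astrocyte score, an alternative chosen after seeing the data, they were 0.19, 0.21 and 0.27, and B2m alone was called (edgeR adjusted p = 0.13, 0.0281 and 0.223). With the choroid plexus score they were 0.37, 0.3 and 0.39, all called, and H2-K1 was called as well (0.31, edgeR adjusted p = 0.0213), as it was in vehicle-treated mice (0.42, edgeR adjusted p = 0.0301). The scores of microglia and astrocytes move with age themselves, and their part in the result was not tested beyond these fits.

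Within groups, H2-K1, Tap2, H2-D1 and B2m varied from mouse to mouse with the endothelial score. This score is the mean log2 CPM of Cldn5, Pecam1, Flt1, Slco1a4, Ly6c1, Ly6a and Kdr. Correlations with single markers were not computed. The share of all genes correlated with the score was not computed either, so the members cannot be set against a background here. H2-K1 and the endothelial score were correlated at Pearson r = 0.647 and rho = 0.641 over 47 libraries centred on their group means (permutation p = 1e-05 for both, the smallest that 100000 permutations can give; adjusted p = 0.00036 over 36 relations), and r was 0.643 without the 2 libraries farthest from the median score. For Tap2, r was 0.518 and rho 0.473 (permutation p = 0.00029 and 0.00121, adjusted p = 0.00522 and 0.0174), with r of 0.467 without those 2 libraries. For H2-D1, r was 0.479 and rho 0.469 (permutation p = 0.00081 and 0.00145, adjusted p = 0.00972 and 0.0174), with r of 0.505 without them. For B2m, r was 0.397 and rho 0.415 (permutation p = 0.00829 and 0.0056, adjusted p = 0.0497 and 0.0403), with r of 0.394. With the microglial score, the 9 members had r between 0.0228 and 0.323 and none had an adjusted p below 0.05, and H2-K1 had r = 0.0617 and rho = 0.0305 (permutation p = 0.694 and 0.846). Whether the correlations with the endothelial and microglial scores differ was not tested. H2-D1 was also correlated with the astrocyte score (r = 0.444, rho = 0.423, permutation p = 0.00577 and 0.00547, adjusted p = 0.0415 and 0.0403), with r of 0.341 without the 2 farthest libraries.

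**Figure D4:**
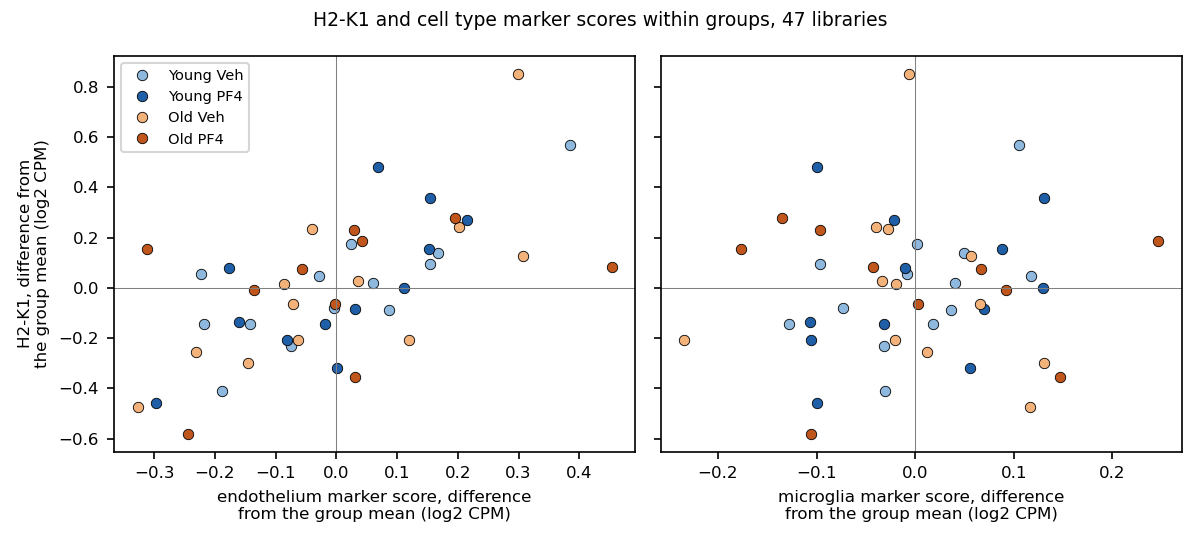
H2-K1 (log2 CPM, difference from the group mean) against the endothelial and the microglial marker score (mean log2 CPM, difference from the group mean) in 47 libraries, coloured by group. H2-K1 is higher in libraries with a higher endothelial score (r = 0.647), and its r with the microglial score is 0.0617.

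Correlations between members were computed within groups. Of the 36 pairs among the 9 tested members, 35 had r above 0 (median 0.322, from -0.0397 to 0.629), and 16 had an adjusted permutation p below 0.05. Over all pairs of the 17778 genes tested, as a description, 49.8% had r above 0, the median was -0.001 and 9.84% reached the median of the member pairs. H2-D1 was correlated with Tap2 (r = 0.629, rho = 0.624, permutation p = 1e-05 and 3e-05, adjusted p = 0.00036 and 0.00108, r of 0.59 without the 2 libraries farthest from the median of H2-D1). With H2-K1 it had r = 0.614 and rho = 0.522 (permutation p = 5e-05 and 0.00034, adjusted p = 0.0006 and 0.00175, r of 0.479). With B2m it had r = 0.582 and rho = 0.574 (permutation p = 3e-05 and 7e-05, adjusted p = 0.00054 and 0.00126, r of 0.52). Psmb8 and Psmb9, which are taken up together into immunoproteasomes, had r = 0.465 and rho = 0.401 (permutation p = 0.00518 and 0.0092, adjusted p = 0.017 and 0.0214, r of 0.362), and Psmb8 and H2-K1 had r = -0.0397 (rho = 0.0362, permutation p = 0.796 and 0.815, adjusted p = 0.843 and 0.815). H2-D1, H2-K1 and the other heavy chains share some sequence, and its part in the correlation between them was not tested.

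As a description, the genes outside the 10 whose values were most like those of H2-D1 within groups over 47 libraries were Irgm1 (r = 0.681), Gsn (0.681), Spp1 (0.668), Pla2g4a (0.627) and Ctsz (0.62). Those most like B2m were Irgm2 (0.74), Cyp1b1 (0.694), Prg4 (0.662), Ifit1 (0.659) and Thbd (0.649).

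The comparison of Old PF4 with Old Veh asked whether the treatment changed the pathway in aged mice. No member was called and none had an unadjusted p below 0.05 with edgeR or with DESeq2, where 0.0337% of the 17778 genes were called and 6.2% had an unadjusted p below 0.05. The 9 log2 fold changes ran from -0.2 to 0.09 with a median of -0.07, and 3 were above 0. B2m gave 0.01 (95% confidence interval -0.12 to 0.15) and H2-D1 gave -0.06 (-0.24 to 0.11). The values for H2-K1 (-0.17, interval -0.41 to 0.06) and Tap1 (-0.2, interval -0.51 to 0.11) had wider intervals, and were -0.08 without Old Veh replicate 3 and -0.12 without Old PF4 replicate 8. Library number and treatment cannot be told apart in this comparison. For H2-D1 no Old PF4 library lay above every Old Veh library and 1 lay below all of them, and for B2m the 10 Old PF4 libraries, at 71.6 to 90.2 CPM, fell within the Old Veh range of 66.5 to 111 CPM.

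In young mice, no member was called and none had an unadjusted p below 0.05 with either tool, and 0% of all genes were called. The 9 values ran from -0.09 to 0.2 with a median of 0. B2m gave 0 (interval -0.13 to 0.12) and H2-D1 gave 0.01 (interval -0.15 to 0.18). Tap1 had the largest value of the 9, 0.2 (interval -0.09 to 0.49), with 4 of 12 Young PF4 libraries above every Young Veh library and 1 below all of them. Nlrc5, fitted with no count filter, gave -0.65 (interval -1.31 to 0.01, edgeR adjusted p = 1) in young mice and -0.44 (interval -1.15 to 0.27, edgeR adjusted p = 0.842) in old mice, from the few reads given above.

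The PF4 effect in old mice did not differ detectably from that in young mice for any member, again with 0% of all genes called. No member had an unadjusted p below 0.05, which 3.98% of all genes had. The difference of the effects was 0.02 for B2m (interval -0.17 to 0.2), -0.07 for H2-D1 (-0.31 to 0.17) and 0.02 for Psmb8 (-0.34 to 0.38). For Tap1 it was -0.4 (SE 0.21, interval -0.83 to 0.03, edgeR adjusted p = 1), with group means of 4.44 CPM in Young Veh, 5.21 in Young PF4, 5.81 in Old Veh and 5.07 in Old PF4. The same term tests whether the age difference depends on treatment. Nlrc5 had group means of 0.728, 0.43, 0.739 and 0.596 CPM in the same order.

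**Figure D5:**
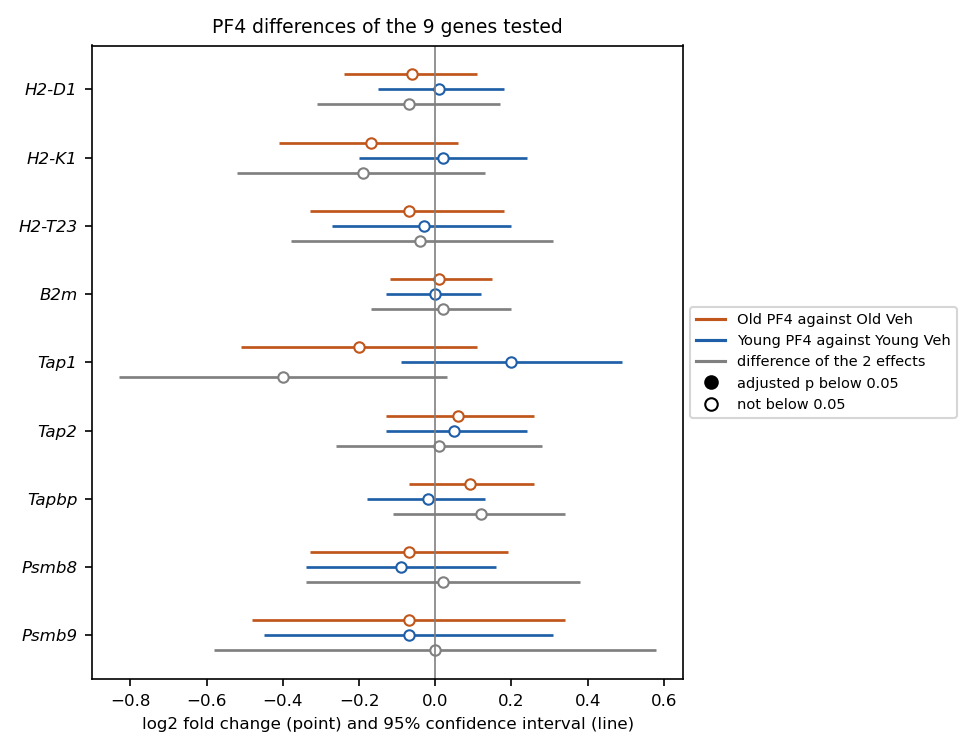
Log2 fold changes of PF4 against vehicle (points) with 95% confidence intervals (lines) for the 9 genes tested in old mice and in young mice, and the difference of both effects. No point has an edgeR adjusted p below 0.05, and B2m and H2-D1 have values from -0.07 to 0.02.

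Among 65 further genes of the pathway and its surroundings, 61 were in the count table and 46 were tested. In vehicle-treated mice 1 rose and 1 fell with age, with a median log2 fold change of -0.05, in PF4-treated mice none was called, and over both treatments 1 rose. The shares of all genes called were 2.77%, 0.332% and 4.71% in the same order, so these counts were near the background. Neither PF4 comparison nor the difference of the PF4 effects called any. The gene that rose was H2-Q6, a Qa-2 heavy chain, at 0.174, 0.958 and 1.64 CPM in Young Veh and at 0.367, 1.24 and 7.68 CPM in Old Veh. Its log2 fold change was 1.17 in vehicle-treated mice (SE 0.33, edgeR adjusted p = 0.0353) and 1.03 over both treatments (SE 0.24, edgeR adjusted p = 0.00639). It rests on 594 reads in all 47 libraries, 32% of its 50-base windows also occur in other genes, and its vehicle value was 0.85 and not called without Old Veh replicate 3. The vehicle call held in 6 of 11 alternatives and in 16 of 25 fits that left out 1 library. The gene that fell was Ifngr2, a subunit of the interferon gamma receptor, from 84 ± 8.38 CPM (SD, n = 13) in Young Veh to 72.3 ± 9.03 CPM (n = 12) in Old Veh (log2 fold change -0.21, SE 0.058, edgeR adjusted p = 0.0345). That call held in 7 of 11 alternatives and in 18 of 25 fits that left out 1 library. In PF4-treated mice Ifngr2 was at 82.3 ± 7.09 CPM (n = 12) when young and 83.5 ± 8.76 CPM (n = 10) when old.

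By list, none of the 5 loading partners (Calr, Canx, Pdia3, Tapbpl and Erap1) was called in any comparison, with values of -0.1 to 0.09 in vehicle-treated mice. None of the 7 other proteasome genes was called, with a median of -0.07 in vehicle-treated mice and -0.01 over both treatments, among them Psmb5 (-0.01 over both) and Psmb10 (0.02). Of 18 regulators and interferon receptors, 1 (Ifngr2, above) fell in vehicle-treated mice and none rose, with Irf1 at 0.08 (SE 0.052) over both treatments. Of 8 class II genes 7 were tested and none was called, with a median of -0.37 in vehicle-treated mice. Of the 5 heavy chains tested outside the members, H2-Q6 alone was called with edgeR, and H2-M3 had a log2 fold change of 0.7 in PF4-treated mice (SE 0.17, edgeR adjusted p = 0.0508, DESeq2 adjusted p = 0.0348) and -0.08 in vehicle-treated mice (SE 0.16). None of the 3 class I-like genes tested was called, and of 8 receptors for class I 1 was tested and not called.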

How the data were processed

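Hippocampal RNA was made into cDNA by Smart-Seq2 and into unstranded Nextera XT libraries. According to the submitters' processing notes, Trim Galore 0.3.7, STAR 2.5.3a and the build GRCm38 were used, and the table that the authors deposited holds unnormalized read counts for each gene. The counting tool and annotation are not given in the sources used here, and the study's methods state that libraries of low coverage had been excluded. Counts of 35486 genes were fitted in 1 model of the 4 groups with edgeR 4.0.16 in R 4.3.3 (TMM normalization, filterByExpr, quasi-likelihood test, Benjamini-Hochberg adjustment over 17778 genes, called below 0.05). CPM are counts per 1000000 after TMM, and log2 CPM used a prior count of 2. The age difference over both treatments is the mean of both age contrasts. Standard errors were taken as |log2 fold change| over the root of the F statistic. The study used DESeq2, which was run (1.42.0) as an alternative. Depth limits members with few reads, such as Nlrc5, Psmb9 and, among the called members, Psmb8 with 6 to 116 reads per library.

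Correlations used log2 CPM minus the group mean, with two-sided permutation p from 100000 permutations within groups, adjusted over the relations of each family. Exon lengths, positions and shared 50-base windows came from a GENCODE annotation of GRCm38, and promoters from RefSeq (GRCm38.p6). Marker scores are mean log2 CPM. The steps were tested on simulated counts. The members and lists were chosen with earlier results of these data known. All 10 members are named. From the lists, every called gene was to be named (at most 5 per list), with 5 genes each most like H2-D1 and B2m, and other list genes were named after their values were seen. Alternatives were DESeq2, its size factors, other count filters, 2 groups alone, a replicate block, the libraries under 5000000 counts or each library left out, and covariates for length index (long against short genes), choroid plexus, microglia and, added after seeing the data, astrocyte score.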

Additional observations from a re-analysis of the deposited data

How the results depend on the processing

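The main changes in the counts of members called were as follows. In Old Veh against Young Veh (2 called), 0 were called without the libraries under 5000000 counts, with the microglia score and with the astrocyte score. H2-K1 was called as well with the choroid plexus score, and Psmb8 was called in 1 of 11 alternatives. In Old PF4 against Young PF4 (0 called), 1 was called with DESeq2, with the 2 groups alone, without the libraries under 5000000 counts, with the choroid plexus score and with the length index, and 2 with the replicate block. Over both treatments (3 called), 0 were called with the microglia score and 1 with the astrocyte score. With the choroid plexus score H2-K1 was called in addition to these 3, and without the libraries under 5000000 counts Psmb8 was not called. The counts of all genes called were 492 in vehicle-treated mice, and 176 without the shallow libraries, 262 with the microglia score and 901 with the length index. They were 59 in PF4-treated mice, and 90 with DESeq2, 21 with the 2 groups alone, 90 with the replicate block, 5 with the microglia score, 98 with the length index and 4 with the astrocyte score. Over both treatments they were 838, and 437, 172, 1394 and 296 without the shallow libraries and with the microglia score, the length index and the astrocyte score. In Old PF4 against Old Veh they were 6, and 24 with DESeq2, 10 with the replicate block and with the choroid plexus score, 2 with the astrocyte score, and 0 with the 2 groups alone, without the shallow libraries, with the microglia score and with the length index. The difference of the PF4 effects had 0, and 1 with no count filter. Leaving out 1 library gave 2 to 3 members and 356 to 593 genes in vehicle-treated mice, 0 to 1 and 36 to 91 in PF4-treated mice, 3 to 4 and 674 to 1092 over both, and 0 and 0 to 20 in Old PF4 against Old Veh. The causes were not tested.

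No called value changed sign. For H2-T23, the vehicle age value of 0.04 became -0.02, -0.04 and -0.01 without the shallow libraries and with the microglia and astrocyte scores, and the value over both treatments of 0.02 became -0.07 and -0.06 with those scores. Tapbp became 0.02 (vehicle) and 0.07 (both) with the choroid plexus score and -0.07 (PF4) with the microglia and the astrocyte score. Tap1 became 0.03, 0.02 and 0.01 in PF4-treated mice with the replicate block, without the shallow libraries and with the choroid plexus score, and its value over both of 0.18 became -0.04 with the microglia score. In Old PF4 against Old Veh, H2-D1, H2-T23, Psmb8 and Psmb9 became 0.02, 0.02, 0.01 and 0.02 without the shallow libraries, and B2m became -0.02 with the astrocyte score. The difference of the PF4 effects became 0.02 for H2-D1 without the shallow libraries, -0.01 for B2m and -0.04 for Psmb8 with the astrocyte score, and -0.06 for Psmb8 with the length index. Leaving out 1 library gave -0.01 to 0.08 for H2-T23 in vehicle-treated mice and -0.01 to 0.05 over both, -0.10 to 0.06 for Tap1 and -0.01 to 0.07 for Tapbp in PF4-treated mice, -0.02 to 0.05 for B2m and -0.13 to 0.02 for Psmb9 in Old PF4 against Old Veh, -0.03 to 0.06 for H2-D1 in Young PF4 against Young Veh, and -0.01 to 0.05 for B2m and -0.04 to 0.10 for Psmb8 in the difference.

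Replicate numbers did not pair the mice: deviations of same-numbered libraries of Old Veh and Young Veh had correlations from -0.42 to 0.36, with 3 of 12 over 0.1 and 2 libraries correlating best with their own number. The correlations ran from -0.37 to 0.17 for Old PF4 and Young PF4 (3 of 10 over 0.1), from -0.29 to 0.33 for Old PF4 and Old Veh (5 of 10) and from -0.19 to 0.55 for Young PF4 and Young Veh (4 of 12). With the replicate block, H2-D1 was at 0.30 and B2m at 0.27 in PF4-treated mice (edgeR adjusted p = 0.0223 and 0.012), and no other member changed its call. H2-D1 and B2m in vehicle-treated mice were called in each of 25 fits that left out 1 library.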
